A study of Mus musculus with 2 samples.

Results

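Olfactory and vomeronasal receptor genes lie in large clusters spread over most mouse chromosomes. The open chromatin regions that fall in these clusters were described here in a tissue outside the nose, the frontal cortex. A region was a member when the nearest transcription start site (TSS) of a protein-coding gene belonged to a gene whose symbol starts with Olfr, Vmn1r or Vmn2r. Of 109538 regions called in either library, 477 were members, 336 of them nearest an Olfr gene, 75 nearest a Vmn1r gene and 66 nearest a Vmn2r gene. The rule used position only and no measured value.

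Open chromatin was read by DNase-seq: DNase I cuts exposed DNA more often than DNA wrapped on nucleosomes, and the cut ends are sequenced. There was 1 group, frontal cortex tissue of female B6CASTF1/J mice aged 25 days, with 2 libraries called replicate 1 and replicate 2. B6CASTF1/J is a first-generation cross of C57BL/6J with CAST/EiJ, a wild-derived strain, while all coordinates are on mm10, the C57BL/6J genome. The labels give the libraries separate biosamples and a single donor identifier, so the spread between them need not be one between animals. There is no second condition and no test between groups. The value of a region is the signal that the authors gave its peak, normalized for read depth on a scale that is not stated, and the sequencing depth is unknown. The tissue label was checked against marker genes. The cortical neuron markers Rbfox3, Map2 and Tubb3 and all 6 of the glial markers (such as Gfap and Olig2) had an open promoter in both libraries. Of 7 markers of olfactory sensory neurons 2 did, as did 1 of 5 of the olfactory bulb, with no promoter region in either library at Cnga2, Stoml3, Rtp1, Tbx21 and Eomes. Of 3 markers of vomeronasal sensory neurons 2 did, Gng8 and Meis2, and Trpc2 had none in either library. Among all 21938 protein-coding genes the share was 61.5%.

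Olfr genes encode the odorant receptors of the main olfactory epithelium, and Vmn1r and Vmn2r genes encode the V1R and V2R receptors of the vomeronasal organ. A mature olfactory sensory neuron transcribes a single Olfr allele, while the rest of the family stays in heterochromatin. Its choice depends on intergenic enhancers known as Greek islands, bound by Lhx2 and Ebf factors and held together by the adaptor Ldb1.

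Members fell into several kinds, and their sequences on the + strand of mm10 are shown first because they differ in kind from receptor promoters. The 2 strongest members on tRNA genes are given with the tRNA gene in capitals, a tRNA-Pro gene at chr14:51064801-51065080 near Olfr750 and a tRNA-Phe gene at chr13:21161281-21161500 near Olfr1368.
tRNA region near Olfr750: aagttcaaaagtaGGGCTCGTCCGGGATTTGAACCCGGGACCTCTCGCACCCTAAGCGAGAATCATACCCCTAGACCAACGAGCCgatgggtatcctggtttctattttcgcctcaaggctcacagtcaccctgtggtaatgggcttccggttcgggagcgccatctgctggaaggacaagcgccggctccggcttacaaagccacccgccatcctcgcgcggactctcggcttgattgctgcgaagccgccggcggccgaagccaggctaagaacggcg
tRNA region near Olfr1368: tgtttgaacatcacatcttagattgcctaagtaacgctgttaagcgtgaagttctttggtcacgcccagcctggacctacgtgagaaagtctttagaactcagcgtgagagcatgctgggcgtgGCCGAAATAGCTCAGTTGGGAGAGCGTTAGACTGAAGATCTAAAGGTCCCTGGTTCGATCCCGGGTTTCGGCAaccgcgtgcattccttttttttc

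Members inside the noncoding gene Firre on chromosome X are shown by the 2 strongest, at chrX:50602961-50603180 and chrX:50614961-50615160, and by 2 others that hold the 16-base word found in the largest number of its regions, at chrX:50566441-50566660 and chrX:50617061-50617280. Capitals mark every word of 16 bases found, on either strand, in at least 5 of the 27 Firre regions.
Firre region 1: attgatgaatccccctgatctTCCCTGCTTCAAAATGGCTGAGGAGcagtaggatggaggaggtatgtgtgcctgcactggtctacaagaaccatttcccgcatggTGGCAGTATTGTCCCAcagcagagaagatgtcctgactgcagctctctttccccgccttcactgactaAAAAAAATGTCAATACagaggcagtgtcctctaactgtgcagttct
Firre region 2: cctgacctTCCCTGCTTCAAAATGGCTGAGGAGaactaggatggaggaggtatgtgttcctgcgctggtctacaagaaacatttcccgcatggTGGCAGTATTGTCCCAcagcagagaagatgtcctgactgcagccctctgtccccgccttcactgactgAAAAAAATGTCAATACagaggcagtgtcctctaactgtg
Firre region 3: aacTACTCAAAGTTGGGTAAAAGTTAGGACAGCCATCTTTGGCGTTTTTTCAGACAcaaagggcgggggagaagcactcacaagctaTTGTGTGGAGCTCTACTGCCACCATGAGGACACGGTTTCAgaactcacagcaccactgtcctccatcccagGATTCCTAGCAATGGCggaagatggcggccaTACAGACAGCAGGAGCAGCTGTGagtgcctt
Firre region 4: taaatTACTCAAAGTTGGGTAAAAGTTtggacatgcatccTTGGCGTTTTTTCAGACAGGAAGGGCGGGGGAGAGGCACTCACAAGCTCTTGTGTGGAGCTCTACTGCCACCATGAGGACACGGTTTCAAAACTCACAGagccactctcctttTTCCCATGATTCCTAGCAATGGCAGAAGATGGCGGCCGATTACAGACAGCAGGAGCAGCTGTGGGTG

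Members with letters of the CTCF motif (CCA, any 2 bases, AG, any 2 bases, GGC), the binding sequence of the factor that anchors chromatin loops, are shown at chr17:37203721-37203880 near Olfr94 and at chr3:64039801-64040000 near Vmn2r1, with those letters in capitals. They were the 2 strongest with these letters that were at most 300 bases long, held no coding-gene exon and are not printed above.
CTCF letters near Olfr94: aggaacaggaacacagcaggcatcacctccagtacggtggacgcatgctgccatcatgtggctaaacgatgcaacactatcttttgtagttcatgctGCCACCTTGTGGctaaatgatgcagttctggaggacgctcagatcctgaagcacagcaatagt
CTCF letters near Vmn2r1: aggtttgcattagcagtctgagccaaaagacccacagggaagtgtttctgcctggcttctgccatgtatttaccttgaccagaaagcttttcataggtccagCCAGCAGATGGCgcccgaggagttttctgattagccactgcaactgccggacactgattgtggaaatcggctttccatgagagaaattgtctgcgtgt

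The member at a Greek island named by RefSeq, the enhancer Fourni, lay at chr7:140186741-140186940. It is shown with the bases of its 4 replicate 1 footprints in capitals. A footprint is a short stretch that the authors called as protected from the enzyme. The member on the annotated CTCF site of a hypersensitive site beside the beta-globin genes, at chr7:103942880-103943020, has that site in capitals. The region centred at -723 bp from the TSS of Olfr459, upstream of the gene at chr6:41775801-41776000, stands for the receptor promoters and has the footprints of either library in capitals.
Fourni region: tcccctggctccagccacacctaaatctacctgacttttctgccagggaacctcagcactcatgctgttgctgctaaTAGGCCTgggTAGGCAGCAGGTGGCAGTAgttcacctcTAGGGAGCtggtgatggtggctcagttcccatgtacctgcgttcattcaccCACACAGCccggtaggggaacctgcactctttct
CTCF site region near Olfr633: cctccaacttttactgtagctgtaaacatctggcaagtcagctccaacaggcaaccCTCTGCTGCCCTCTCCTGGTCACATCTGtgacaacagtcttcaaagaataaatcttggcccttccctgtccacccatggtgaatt
promoter region of Olfr459: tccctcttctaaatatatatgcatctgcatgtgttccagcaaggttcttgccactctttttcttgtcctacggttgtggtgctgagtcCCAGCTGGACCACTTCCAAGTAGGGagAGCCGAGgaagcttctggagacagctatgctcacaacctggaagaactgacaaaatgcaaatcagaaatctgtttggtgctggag

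Receptor territory was sparse in open regions. The sequence whose nearest coding TSS is a receptor's came to 54.6 Mb and held 8.74 regions per Mb, against 42.1 per Mb in the 2593 Mb nearest to all other coding genes. Replicate 1 alone gave 6.36 per Mb in receptor territory and 31.9 per Mb elsewhere. Replicate 2 alone gave 5.87 per Mb in receptor territory and 32.7 per Mb elsewhere, so the gap between territories was far wider than the spread between libraries. Olfr territory held 10.4 regions per Mb, Vmn1r territory 8.04 and Vmn2r territory 5.14. Repeat-masked bases made up 51.1% of receptor territory and 36.1% of the rest. The share of each territory that short reads can reach was not measured, and its part in these densities was not tested.

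Fewer members than other regions were called in both libraries. Of the 477 members 190 (39.8%) were called in both, 157 in replicate 1 only and 130 in replicate 2 only, where 53.6% of all 109538 regions were called in both. On the authors' shorter and stricter peak lists this order turned round, with 62.4% of 189 members and 57.8% of other regions called in both. The member share there includes the Firre and tRNA gene regions and was not computed without them. The shared percentage on the longer lists was 46.4% for Olfr, 25.3% for Vmn1r and 22.7% for Vmn2r regions. Member values were lower too, with medians of 0.367 (replicate 1) and 0.463 (replicate 2), where all other regions had 0.627 and 0.685 in the same libraries. Among Vmn2r regions the medians were 0.218 and 0.257, and among Olfr regions 0.424 and 0.534. Where a member was called in 1 library, the other library seldom listed a position there at the authors' limit, a q-value (false discovery rate of the cut rate) of 0.05. It did so at 5 of 157 members of replicate 1 only and at 7 of 130 members of replicate 2 only. The corresponding shares were 13.4% and 16.7% among all other such regions. In shared members, replicate 1 over replicate 2 had a median log2 ratio of -0.12 with an SD of 0.45 (n = 190), and 6 (3.16%) differed by over 2-fold. The 58469 other regions called in both had a median ratio of -0.14 with an SD of 0.39, and 1.75% of them differed by over 2-fold.

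**Figure D1:**
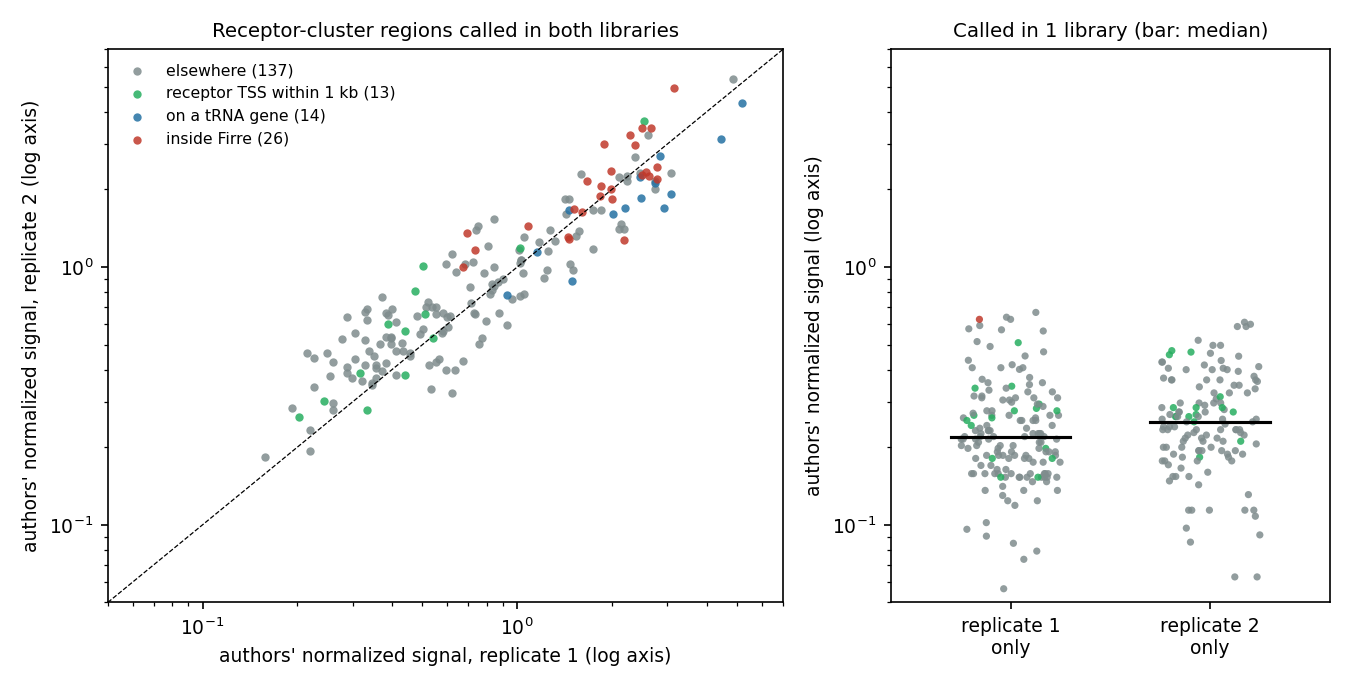
The left panel plots the authors' normalized signal of each member called in both libraries, replicate 1 on the horizontal and replicate 2 on the vertical log axis, coloured by kind, with a dashed line at equal values. The right panel gives members called in 1 library, with bars at the medians of 0.22 and 0.251. Regions inside Firre and on tRNA genes sit at the upper end, and the highest member called in 1 library lies at 0.667.

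Members were narrow and partly in repeated sequence. Their median width was 151 bp, against 200 bp for all other regions, with a median of 2 CpG dinucleotides against 4. In 92 of the 477 members (19.3%) fewer than 50% of the 31-base words occur once in the genome, as was the case for 2.04% of all other regions. This share was 12.8% for Olfr, 41.3% for Vmn1r and 27.3% for Vmn2r regions. Without these members the part called in both libraries was 44.4%. A footprint was present in either library in 61.2% of members, where 79.1% of all regions held one. Most members, 306, were intergenic (64.2%, against 32.6% of other regions), 76 were in introns, 52 in exons and 43 had their centre within 1 kb of a receptor TSS (9.01%, against 27.2% of other regions at a promoter).

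The gap between territories was widest at the genes' own start sites. Within 1 kb of a TSS receptor territory held 8.47 regions per Mb and other territory 320, and from 1 to 10 kb the values were 6.72 and 49.5. From 50 to 200 kb they were 13.5 and 28.3, where 27 of the 81 members lay in Firre, and the density of members was 9.03 without them. Beyond 200 kb they were 13.6 and 14.7 per Mb, and regions called in both libraries 5.74 and 5.96 per Mb, although receptor territory held 19 regions on 1.39 Mb there, 12 of them nearest Olfr1507 and 6 nearest Olfr161. Around other genes regions thinned out with distance from a TSS, while in receptor territory the lowest density was that from 1 to 10 kb.

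**Figure D2:**
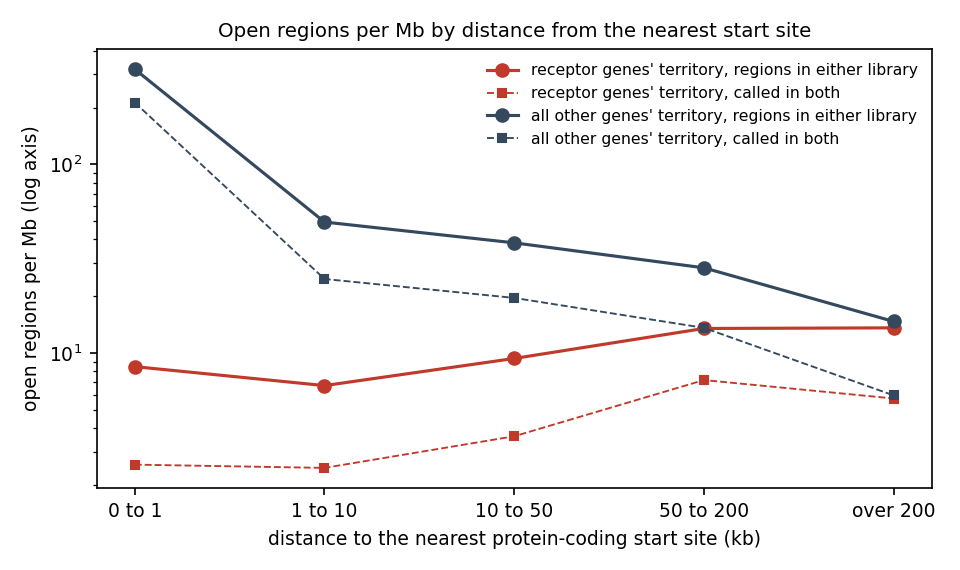
The horizontal axis gives the distance to the nearest protein-coding TSS in kb and the vertical log axis open regions per Mb of sequence at that distance, for receptor territory (red) and all other territory (dark), for regions in either library (circles) and in both (squares). The lines lie far apart within 1 kb, at 8.47 and 320, and close together beyond 200 kb, at 13.6 and 14.7.

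Members also thinned out with distance from the nearest coding gene that is not a receptor. Within 20 kb of such a gene receptor territory held 22.4 regions per Mb, of which 51.2% were called in both libraries. From 20 to 100 kb it held 12.1 per Mb, from 100 to 300 kb 8.02 (6.71 without Firre and tRNA gene regions), and beyond 300 kb 5.02, of which 21.4% were called in both. Median values in the deepest class were 0.249 in replicate 1 and 0.283 in replicate 2, against 0.548 and 0.697 within 20 kb.

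Nearly all receptor start sites were without a call. Of the 1466 annotated protein-coding receptor genes, 13 (0.887%) had a promoter region, one no more than 1 kb from a TSS, in both libraries, where 61.5% of all 21938 protein-coding genes did. Another 16 had one in replicate 1 only and 12 in replicate 2 only, which left 1425 (97.2%) with none. A window of 2500 bp on each side raised the 13 to 26, and one of 500 bp lowered it to 9. By family the genes with a promoter region in both libraries were 12 of 1135 Olfr, 1 of 209 Vmn1r and 0 of 122 Vmn2r genes, and no Vmn2r gene had one in either library. Receptor promoters are poor in CpG, with a median of 3 in the 1 kb around the 5' end against 45 for all other coding genes, so genes were also compared within classes of CpG count. CpG was counted at the annotated 5' end of the gene only, while a promoter region could lie at any of its TSS. A gene in a class of few CpG may thus be open at another TSS, and the classes do not strictly match promoters by CpG. With 0 to 4 CpG, 7 of 1019 receptor genes (0.687%) and 68 of 1050 other genes (6.48%) had a promoter region in both libraries. With 5 to 9 CpG the counts were 0 of 388 receptor genes and 318 of 2001 other genes (15.9%), and with 10 to 14 CpG 4 of 40 and 461 of 1806 (25.5%). With 15 to 19 CpG they were 0 of 13 receptor genes and 478 of 1333 other genes (35.9%), and with 20 or more CpG 2 of 6 and 12151 of 14282 (85.1%).

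**Figure D3:**
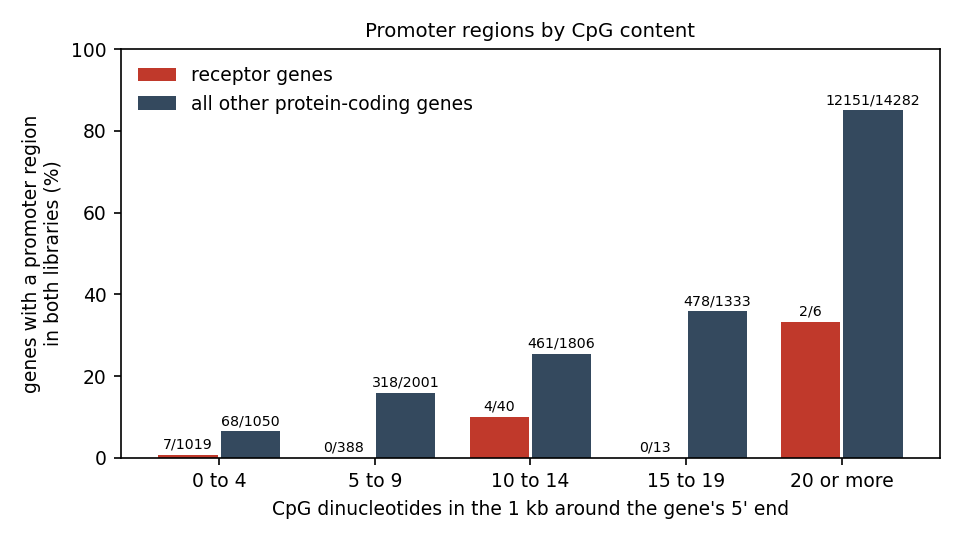
Bars starting at 0 give the percentage of genes with a promoter region in both libraries, for receptor genes (red, left) and all other protein-coding genes (dark, right), by the number of CpG dinucleotides around the 5' end. Counts stand above the bars, and a promoter region may lie at any TSS of the gene. In each class the receptor bar is the lower, with 0.687% and 6.48% in the class of 0 to 4 CpG.

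The receptor promoters that were open in both libraries were mostly weak. The strongest by far was that of Vmn1r4, with values of 2.53 in replicate 1 and 3.68 in replicate 2, in a region 520 bp wide with 42 CpG dinucleotides at chr6:56923821-56924340. The TSS of Nt5c3, a pyrimidine 5'-nucleotidase, lies 148 bp from the centre of that region, which makes it the one region within 1 kb of a receptor TSS that is also within 1 kb of another coding TSS. Which of the start sites the region belongs to cannot be told apart. Next came Olfr459 with 1.02 and 1.19, the promoter region printed above, in replicates 1 and 2. Olfr434 had 0.503 and 1.01 in replicates 1 and 2, and Olfr1414 had 0.475 and 0.811. Olfr1392, Olfr94, Olfr658, Olfr464, Olfr1391, Olfr90, Olfr516, Olfr1389 and Olfr536 had values between 0.203 and 0.657 over both libraries. Of the 13 member regions within 1 kb of a receptor TSS and called in both, 2 exceeded the medians of all other regions in both libraries.

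The genes of the olfactory system outside the clusters were open to different degrees. The list of receptor choice and silencing factors had an open promoter in both libraries at 15 of 15 genes, where 61.5% of all protein-coding genes had one. All of these genes but Trim28 (6 CpG) have 48 or more CpG in the 1 kb around the 5' end. Among non-receptor genes with 20 or more CpG the share was 85.1%. The strongest was that of Eif2ak3, the stress kinase Perk, with 4.98 and 6.97 in replicates 1 and 2, while Emx2, a homeodomain factor, had 0.921 and 0.782 and Atrx, a chromatin remodeller, 0.87 and 1.12. Atf5 (4.98 and 5.66), Cbx5 (4.05 and 5.93), Trim28 (3.86 and 3.32) and Kdm1a (3.46 and 3.58) were among the strongest in replicates 1 and 2. The enhancer factors Lhx2 (1.62 and 1.83) and Ldb1 (1.34 and 1.6) were open in both replicates as well. These regulators serve many tissues besides the nose. The olfactory transduction list held 19 genes. Among them are the transcription factors Ebf1, Ebf2, Ebf3 and Ebf4, which were open in both libraries. Of the 19 genes 11 were open in both libraries (57.9%), near the 61.5% of all coding genes. The strongest was Ric8b, a G protein chaperone, with 3.75 and 3.2. Gnal, the olfactory G protein that the striatum also uses, had 1.34 and 2.04, and Slc24a4 had 1.53 and 1.37. Reep1 (0.831 and 1.16) and Ebf2 (0.91 and 1.15) were also open. Cngb1 (0.373) and Gng13 (0.571) had a region in replicate 1 only and Omp, the olfactory marker protein, in replicate 2 only (0.708). The channel subunits Cnga2 and Cnga4 had none, nor had Stoml3, Rtp1 and Rtp2. These genes without a region have 8 to 15 CpG. In the CpG classes from 5 to 19, 15.9% to 35.9% of non-receptor genes were open in both libraries. Of the 5 genes on the vomeronasal list Gnao1, Gnai2, Gng8 and B2m were open in both libraries (80%, against 61.5% of all coding genes). Trpc2, the vomeronasal channel, was open in neither. The other clustered chemoreceptors resembled the Olfr and Vmn genes, with promoter regions in both libraries at 0 of 15 Taar, 0 of 35 Tas2r and 0 of 7 Fpr genes. Taar3 had one in replicate 1 only, at 0.356.

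The Greek islands that RefSeq names were closed in the calls of this tissue, but for 1 in replicate 1. RefSeq annotates 12 olfactory receptor enhancers by name, and for 11 of them the nearest coding TSS is a receptor's. None overlapped a region called in both libraries, where 19.5% of all 1015 RefSeq enhancer intervals did. Whether 0 of 12 differs from that share was not tested, and no other island was examined. The enhancers Rhodes, Symi, Crete, Sifnos, H, Tinos, Lipsi, Sfaktiria, Kefallonia, Ikaria and Ios overlapped no region, and neither library listed a position in them at the q-value limit of 0.05. Fourni held 1 region in replicate 1, at 0.627, 10779 bp from the TSS of Olfr523, with 234 listed bases and a lowest q-value of 0.000102. Replicate 2 listed no base in Fourni. The beta-globin genes lie within an Olfr cluster on chromosome 7, and their flanking hypersensitive sites were mostly closed too. The 3' hypersensitive site 1 and the upstream sites near Olfr65 held no region in either library. The farther upstream sites, near Olfr633, held 1 region in replicate 1, at 0.311, on the annotated CTCF site printed above, and none in replicate 2.

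The strongest members were features that are not receptor genes. A member was above the median of all other regions in both libraries in 98 of 477 cases (20.5%), against 31.7% of all other regions. Of these 98 members 26 lay inside Firre and 14 on tRNA genes, 2 were within 1 kb of a receptor TSS, 2 at the start of a pseudogene, 1 among T-cell receptor alpha V segments and 53 at none of these. Among the 12 strongest members called in both libraries, 5 lay in Firre, 3 on tRNA genes and 1 at the Vmn1r4 and Nt5c3 start sites. The other 3 were at chr15:98181201-98181640, 14025 bp from Olfr288 and 14262 bp from Ccdc184 (2.61 and 3.25 in replicates 1 and 2, with 27 CpG), and a pair on chromosome 18 near Vmn1r238. The pair, at chr18:3004801-3004980 and chr18:3005201-3005400, had 4.86 and 5.39, and 3.08 and 2.32, in replicates 1 and 2. In the first of them 27.3% of the 31-base words are unique, and in the second 70.6%. Repeat-masked bases made up 68.9% and 52.5% of the pair, so reads there may not have been placed with certainty. The kinds of member were set after the values were seen. Without the Firre and tRNA regions 34.4% of the remaining 436 members were called in both libraries, and median values were 0.328 and 0.411.

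Firre is a long noncoding RNA gene on the X chromosome, rich in tandem repeats and known to escape X inactivation and to bind CTCF on the inactive X. It spans chrX:50555744-50635321 on the minus strand, 79.6 kb with no coding TSS inside, and the nearest coding gene to most of it is Olfr1324, 133 to 195 kb from its regions. Firre held 27 members, of which 26 were called in both libraries. Over the 27, values ran from 0.627 to 3.16 in replicate 1, and over the 26 called in replicate 2 from 0.999 to 4.97, with medians of 1.99 and 2.11. All 26 regions called in both libraries exceeded the medians of all other regions in each, and all 26 held footprints in both. The strongest, at chrX:50602961-50603180, had 3.16 and 4.97. Among 6024 genes of at least 50 kb of any biotype, 15 had more regions per Mb than Firre, which had 352 where the median gene had 41.2. That density counts a further region 0.185 kb inside the annotated 5' end, nearest to Stk26 and so no member, with 0.371 in replicate 2 and no call in replicate 1. The members began 12 kb from that end and ran to 74.2 kb.

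**Figure D4:**
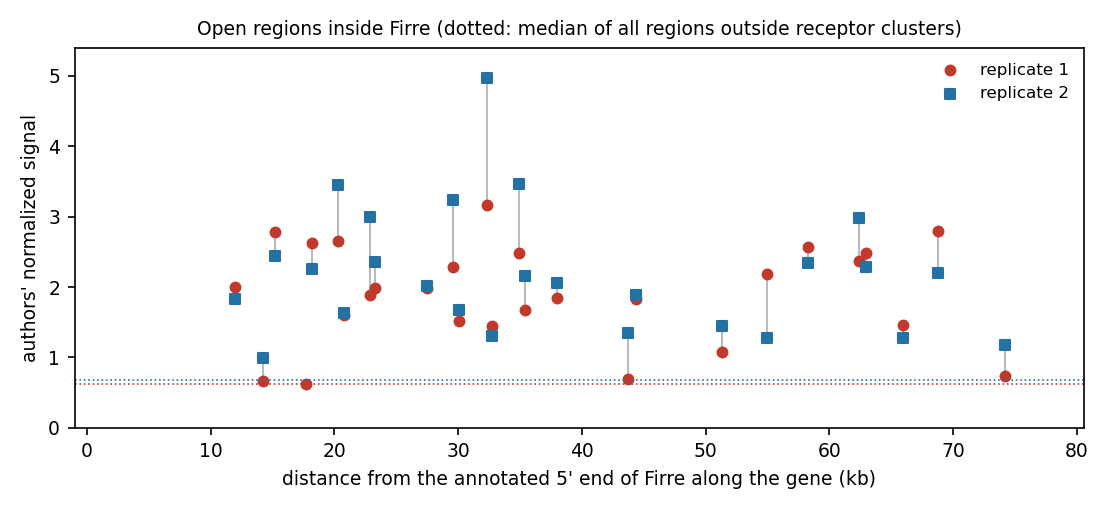
Each pair of points is a region inside Firre, placed by its distance in kb from the annotated 5' end, with the authors' normalized signal in replicate 1 (circles) and replicate 2 (squares) on the vertical axis. Dotted lines mark the medians of all regions outside the receptor set, 0.627 and 0.685. Points lie between 12 and 74.2 kb and, apart from the region called in replicate 1 only at 0.627, above those medians.

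The Firre regions repeat each other in sequence. Of all 16-base words, 143 occurred in at least 5 of the 27 regions, 21 regions held at least 1 of them, and so did 1 of the other 450 members. Of the regions printed above, 1 and 2 share a run of 57 bases, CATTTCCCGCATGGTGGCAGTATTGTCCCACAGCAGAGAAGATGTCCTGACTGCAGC, and 3 and 4 share a run of 40 bases, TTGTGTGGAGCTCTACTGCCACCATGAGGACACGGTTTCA. The longest run common to a region of the one pair and a region of the other was 13 bases, CATGGTGGCAGTA, on opposite strands. The word found in the largest number of regions, ACAGCTGCTCCTGCTG (on the minus strand in regions 3 and 4), was in 10 of the 27, in 2 of all regions elsewhere, 12 times in the gene and 25 times in the genome. It touched a footprint in either library in 4 of those 10 regions. The letters used for CTCF (CCA, any 2 bases, AG, any 2 bases, GGC) were in none of the 27 regions, which says only that these letters are not there. In 6 of the 27 regions fewer than 50% of the 31-base words are unique, so reads from neighbouring repeats may not have been placed with certainty.

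tRNA genes inside receptor territory were open. RefSeq holds 403 tRNA genes, and 19 had a receptor's as the nearest coding TSS. Of these 19, 17 lay in a region called in both libraries, where 57.3% of all 403 did. They made up 14 members, all called in both libraries with footprints in both. Of the 229 tRNA regions outside receptor territory 91.7% were called in both libraries and 90.8% held footprints in both. The strongest was the tRNA-Pro gene near Olfr750 with 5.19 and 4.33 in replicates 1 and 2, and next was the tRNA-Phe gene near Olfr1368 with 4.45 and 3.15. The tRNA-Thr gene beside the tRNA-Pro gene had 2.84 and 2.7. On chromosome 19, 6 members near Olfr1423 covered tRNA genes for Phe, Lys, Leu, Arg and Val, with values from 0.885 to 3.08 over both libraries. On chromosome 13, 4 members near Vmn1r223 covered tRNA genes for Ile, Val and Ala, with values from 0.782 to 2.47. A tRNA-Lys gene near Olfr401 and a tRNA-Phe gene near Olfr1423 were in no region. All of the tRNA members exceeded the medians of all other regions in both libraries. Values were higher in replicate 1 in 13 of the 14, with a median log2 ratio of replicate 1 over replicate 2 of 0.35 (SD 0.28). The 210 tRNA regions outside receptor territory that were called in both had the same median ratio, 0.35 (SD 0.31), against -0.12 over all members.

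CTCF letters were about as frequent in members as in other regions. The letters CCA, any 2 bases, AG, any 2 bases and GGC were found on either strand in 46 members (9.64%), against 9.12% of all other regions, and away from promoters the shares were 10.4% and 10.8%. In 41 of the 46 the letters touched a footprint, as they did in 8455 of the 9941 other regions that held them. Members with these letters were called in both libraries in 69.6% of cases and had medians of 0.582 and 0.662, against 36.7% and medians of 0.333 and 0.434 for members without them. Among all other regions 80.2% of those with the letters and 50.9% of those without were called in both. Outside tRNA genes and chromosome 18, the strongest with at most 300 bases and no coding-gene exon were those near Olfr94 (2.37 and 2.67) and Vmn2r1 (2.74 and 2.15), printed above. Among 13 motifs searched on both strands, SP/KLF (GGGCGG) was in 8.81% of members and 19.3% of other regions, but in 8.99% and 8.58% away from promoters. These members include the Firre regions, of which 14 of 27 (51.9%) held GGGCGG. In calls of both libraries it was in 8% of members outside Firre and tRNA genes and 12.3% of other regions away from promoters. AP-1 (TGANTCA) was in 6.71% of members and 9.17% of other regions, and away from promoters in 6.45% and 10.8%. In calls of both libraries it was in 12% of members outside Firre and tRNA genes and 14.3% of other regions away from promoters. It overlapped a footprint in 1.33% and 4.24% of them. CRE (TGACGTCA) was in 0 members and 0.844% of other regions, or 0.398% of those away from promoters. Whether these shares differ was not tested. The neuronal E-box CAGATG was in 17.8% of members and 19.3% of other regions. In calls of both libraries it was in 28.7% of members outside Firre and tRNA genes and 27.4% of other regions away from promoters. There it overlapped a footprint in 15.3% and 11.1%, and these differences were not tested either. EBF (TCCC, any 2 bases, GGGA) was in 1 member (0.21%) and 0.816% of other regions. The homeodomain letters TAATTA, which Lhx2 can bind, were in 2.52% of members and 2.37% of other regions. Among regions called in both libraries they were in 11 of 190 members (5.79%) and 2.86% of other regions. There the shares were 6.32% and 4.09% within 300 bases around the centre, and 0.526% and 0.467% overlapping a footprint. Without Firre and tRNA gene regions 5.33% of such members held the letters, against 3.55% of other regions away from promoters.

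Regions were unevenly spread over the clusters. Genes less than 1 Mb apart were joined into 70 clusters, of which 28 held at least 10 genes, and 15 small clusters held no region. Among the 28 the density ran from 1.92 to 24.1 regions per Mb with a median of 7.83. The clusters with most regions were the one on chromosome X that borders Firre (35 regions for 5 genes, 27 of them in Firre), one on chromosome 19 (29 regions, 66 genes), one on chromosome 14 (28, 38 genes), one on chromosome 7 with 35 Vmn1r, 29 Vmn2r and 8 Olfr genes (27) and one on chromosome 9 (25, 95 genes). The 2 clusters with most genes, of 227 and 129, were not among these 5. The densest of the 28 were small Olfr clusters, on chromosome 11 with 23 genes (24.1 per Mb) and 19 genes (21 per Mb), and on chromosome 7 with 19 genes (21 per Mb). The sparsest were an Olfr cluster of 37 genes on chromosome 9 (1.92 per Mb, 3 regions), one of 68 genes on chromosome 7 (3.3) and one of 28 genes on chromosome 2 (3.86). The largest, 227 Olfr genes on chromosome 2, held 20 regions in 4.93 Mb, of which 6 were called in both libraries. A cluster of 65 Vmn1r genes on chromosome 7 held 15 regions, of which 1 was called in both.

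**Figure D5:**
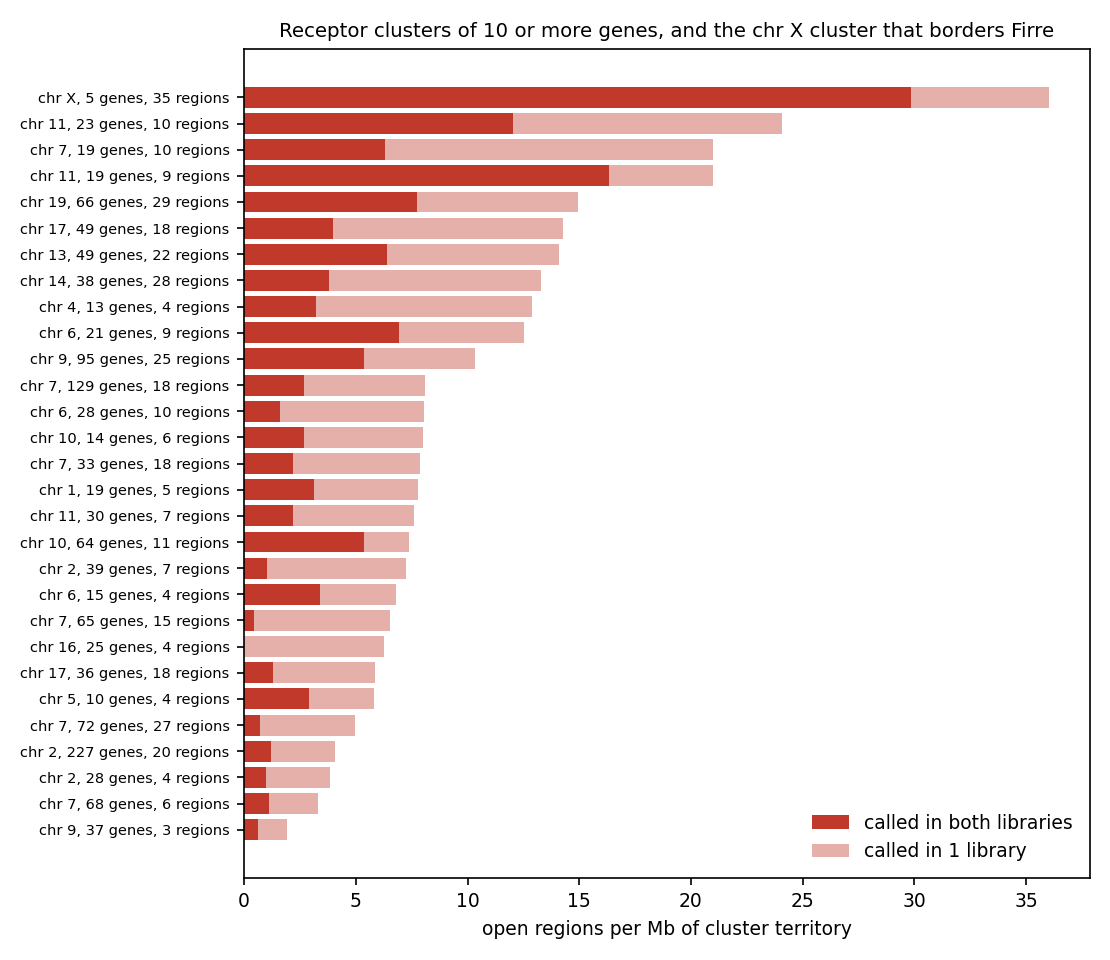
Each bar is a receptor cluster, with its chromosome, number of genes and number of regions, and its length gives open regions per Mb of cluster territory, split into those called in both libraries (dark) and in 1 (light). Shown are the 28 clusters of 10 or more genes and the chromosome X cluster that borders Firre. Densities among the 28 run from 1.92 to 24.1 per Mb.

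A few genes were nearest to many regions, some over long stretches without other coding genes and some over short ones. Of the 1466 receptor genes 300 (20.5%) were nearest to at least 1 region, against 84.5% of all other coding genes. Olfr1324 was nearest to 33 regions, 27 of them in Firre, and Olfr1423 to 14, 6 of them on tRNA genes. Olfr1507 was nearest to 14 regions, 37.8 to 817 kb away, all among the V segments of the T-cell receptor alpha locus. Of these 3 were called in both libraries, and 8 had fewer than 50% unique words. The strongest of them, at chr14:52810701-52810880, had 0.842 and 0.999 in replicates 1 and 2, and the weakest 0.0848 in replicate 1 and 0.0628 in replicate 2. Olfr161 on chromosome 16 was nearest to 11 regions, of which 7 had fewer than 50% unique words, and 4 of the 11 were called in both libraries, at 0.48 to 1.31. Vmn1r223 was nearest to 7 regions, 4 of them on tRNA genes. Olfr90 and Vmn2r7 were nearest to 6 each, and Vmn1r2 and Vmn2r79 to 5 each. Those of Vmn1r2 were each called in 1 library.

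Beyond Firre and the tRNA genes, the strongest Vmn1r and Vmn2r members were mostly away from start sites. Near Vmn1r40 a region at chr6:89680261-89680480 had 2.11 and 1.4 in replicates 1 and 2. Among Vmn2r regions the one near Vmn2r1 led, with 2.74 and 2.15. Near Vmn2r27 a pair of regions had 1.42 and 1.83, and 1.74 and 1.18, in replicates 1 and 2. A region near Vmn2r87 at chr10:130541921-130542580 (1.43 and 1.6) lay 97 bp from the start of the long noncoding RNA Gm31793. A region in an intron of Vmn2r7 had 1.51 and 0.976. Members called in 1 library were weaker. The strongest of replicate 1 only were near Olfr324 (0.667), Olfr161 (0.639), inside Firre (0.627) and, at the same value, in the Fourni enhancer (0.627), and those of replicate 2 only near Vmn1r3 (0.611), Olfr279 (0.6) and Olfr1423 (0.588).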

How the data were processed

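DNase-seq libraries of frontal cortex (1 group, 2 libraries) were analysed from the deposited files, which are on mm10 and were made per library, per the text files deposited with them. The aligner, the callers and their versions were not given in the sources used here, and the depth is unknown. Each peak's value is the authors' deposited signal, read-depth normalized on an unstated scale. The deposited footprint lists carry 1 constant, 0.01, read as a p-value threshold, and the deposited false discovery rates are q-values per position, listed up to 0.05. The longer peak list of each library (85603 peaks in replicate 1, 87847 in replicate 2) was merged where peaks overlapped by at least 1 bp, and the region's centre was assigned to the nearest TSS of any transcript of a protein-coding gene (GENCODE vM21, 21938 genes). Genes with a region within 1 kb of a TSS had a promoter region. Territory counts bases other than N. Uniqueness is the share of a region's 31-base words that occur once in the genome. tRNA genes and enhancers were those of RefSeq for GRCm38.p6.

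Named regions were the 12 strongest called in both libraries, the 5 strongest of each family, the 3 strongest of each library alone and those within 1 kb of a receptor TSS in both. Further named were the 8 genes nearest to most regions (with 1 tied), the clusters with most regions or the highest and lowest densities, up to 5 genes of each list by value and 5 without a region, and those with a region in 1 library. Other genes, regions, RefSeq elements and clusters given were chosen after their values were seen. The members and lists were chosen with earlier results of these data known. No test was made, since there is 1 group. Merging, assignment and motif search were tested on simulated data and recovered 2000 of 2000 regions, 2000 of 2000 nearest sites and 1300 of 1300 planted words. Python 3.11.15 with numpy 2.4.6, pandas 2.3.3, scipy 1.17.1, numba 0.67.0 and matplotlib 3.10.9 was used.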

Additional observations from a re-analysis of the deposited data

How the results depend on the processing

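Numbers and values of receptor regions depended on how strict the peak list was. With the shorter peak lists there were 189 members, 3.46 per Mb, 62.4% in both libraries, medians of 0.946 and 1.03, and 6 genes with a promoter region in both. With peaks at or above the library median there were 122 members, 2.24 per Mb, 80.3% in both, medians of 1.46 and 1.39, and 2 such genes. On these lists other regions stood at 23.3 and 19 per Mb with 57.8% and 71% in both, so the lower density of members kept its direction while their lower shared percentage turned round (62.4% of members against 57.8% of other regions, and 80.3% against 71%). These shares include Firre and tRNA gene regions and were not computed without them. On the longer lists, 98 members exceeded the medians of other regions in both libraries, 26 of them in Firre and 14 on tRNA genes. The cause of the turn was not tested. Leaving out 1 library gave 321 to 348 members, 5.88 to 6.38 per Mb, medians of 0.463 and 0.37 in the library kept, and 25 to 29 genes with a promoter region in it. With 1 TSS per gene 8 receptor genes had a promoter region in both libraries, with 500 bp windows 9 and with 2500 bp windows 26. Without regions of repeated words 44.4% of members were in both, and without Firre and tRNA gene regions, an alternative added after seeing the data, 34.4%. Under the remaining settings (overlap of the shorter peak, clusters joined to 500 kb, footprint and motif definitions) the values moved less than the limits set. The 12 strongest members had the same values in the shorter lists. No paired analysis was possible because there is 1 group. Depth is unknown, so a closed site means no call at this depth.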
